A study of Mus musculus with 6 samples.

Results

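Endothelial marker genes were examined in RNA-seq of cultured cardiac fibroblasts (CFs), to ask how much RNA of vascular lining cells these cultures held and whether it differed between genotypes. The genes were a list of 10 symbols, *Pecam1*, *Cdh5*, *Kdr*, *Tek*, *Tie1*, *Flt1*, *Emcn*, *Egfl7*, *Esam* and *Eng*, taken by name and not by any measured value from a table of 19446 genes. Of the 10 genes, 8 had values, while *Tie1* and *Emcn* had no entry. The authors left out genes with few counts, and every gene kept had at least 10 reads over the libraries. Why *Tie1* and *Emcn* are absent was not tested. The CFs came from wild type (WT) mice and from CharmeKO mice, in which a polyadenylation signal is inserted in the locus of *Charme*, a long non-coding RNA of heart and skeletal muscle. Both groups were on the C57BL/6J background and 5 weeks old, with 3 libraries each. In both, cells had grown out of minced atrial tissue pooled from littermates, on fibronectin in serum-containing medium, and were used at early passage. No cell sort is described before the RNA of these cultures was taken, so that other cells of the atrium could be carried along. The libraries were directional and poly(A)-selected, and native CFs, which the study isolated without culture, were not analysed here. The methods describe the study's replicates in general as separate primary isolations, and the sample labels do not tie a library to its isolation.

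Endothelial cells form the inner lining of blood vessels and of the chambers of the heart. They are held together by junction proteins (*Pecam1*, *Cdh5*, *Esam*). They carry receptors of vascular endothelial growth factors (*Kdr*, *Flt1*) and of angiopoietins (*Tek*), and the related receptor *Tie1*. *Emcn* encodes a surface sialomucin, *Egfl7* a secreted protein of growing vessels, and *Eng* a co-receptor of the TGF-β family that mesenchymal cells and macrophages can carry as well. *Flt1* is likewise made outside the endothelium, for instance by monocytes. *Kdr* encodes CD309 (Flk1), the antigen by which the study's flow cytometry set vascular cells apart. ETS-family transcription factors, several of which mark the endothelium, bind a GGAA core.

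The 250 bases upstream of the start of 4 members are given, *Eng* and *Flt1* with the most reads here and the receptors *Kdr* and *Tek* with few, because this core is common to genes at both ends of the range. Capitals mark GGAA, or TTCC where the core lies on the other strand. Sequences and starts are those of RefSeq on GRCm38.p6, read 5′ to 3′ along the gene's strand.
*Eng*, chr2:32646345-32646594, plus strand: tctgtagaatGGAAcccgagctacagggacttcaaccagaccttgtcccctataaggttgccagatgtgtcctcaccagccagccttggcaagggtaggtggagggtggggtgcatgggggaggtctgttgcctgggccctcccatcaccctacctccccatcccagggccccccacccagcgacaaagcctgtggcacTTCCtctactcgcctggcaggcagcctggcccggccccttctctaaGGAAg
*Flt1*, chr5:147726012-147726261, minus strand: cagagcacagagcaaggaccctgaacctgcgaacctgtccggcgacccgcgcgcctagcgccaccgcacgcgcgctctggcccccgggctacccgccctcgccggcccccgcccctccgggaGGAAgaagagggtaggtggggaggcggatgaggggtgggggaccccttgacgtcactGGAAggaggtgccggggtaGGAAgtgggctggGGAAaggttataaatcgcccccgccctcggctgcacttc
*Kdr*, chr5:75978456-75978705, minus strand: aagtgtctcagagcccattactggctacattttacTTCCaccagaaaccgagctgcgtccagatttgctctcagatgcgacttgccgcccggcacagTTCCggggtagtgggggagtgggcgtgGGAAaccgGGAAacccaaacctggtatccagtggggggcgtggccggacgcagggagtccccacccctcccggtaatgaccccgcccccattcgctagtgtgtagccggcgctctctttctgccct
*Tek*, chr4:94739039-94739288, plus strand: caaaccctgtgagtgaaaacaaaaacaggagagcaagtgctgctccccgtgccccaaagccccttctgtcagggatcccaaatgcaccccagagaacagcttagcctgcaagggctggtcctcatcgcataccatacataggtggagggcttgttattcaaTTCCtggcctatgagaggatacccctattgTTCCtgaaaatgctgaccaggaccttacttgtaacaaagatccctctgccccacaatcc

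The motif occurred 3 times before *Eng*, 4 times before *Flt1*, 4 times before *Kdr* and 2 times before *Tek*. All 4 copies of *Flt1* were on the gene's own strand and both copies of *Tek* on the other. RefSeq sequences were matched for 7 of the 10 members, among which *Tie1* had 7 copies, *Emcn* 4, and the 3 starts of *Egfl7* 5, 3 and 1. Of 32851 promoters of the same length 93.4% held the motif, with a mean of 2.91 copies. Among them 76.8% had 2 or more, 54.7% had 3 or more and 33.4% had 4 or more. A further step up, 18% had 5 or more and 3.82% had 7 or more. *Flt1* and *Kdr* had the same number, although their levels in these cultures lay far apart.

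The libraries held 38330019 to 46797446 recovered reads. Levels are given in CPM, the reads of a gene relative to the library total, and for comparisons between genes in RPKM, which further divides by the merged exon length in kilobases. A count of 0 reads allows a level of up to 3 reads, or 0.0641 to 0.0783 CPM depending on the library, and this limit covers counting error only. All 20 fibroblast markers of a fixed list had values. So did all 18 macrophage and haematopoietic markers, so that having reads does not by itself identify the cells. By summed level, the fibroblast markers stood at 36800.4 to 72806.5 CPM, above every other marker list in each library. *Col1a1*, the main chain of type I collagen, stood at 9285.2 to 20004.2 CPM. By mean RPKM *Col1a1* was at rank 6 of 19373 genes. The single entry of the table without an Ensembl identifier was taken to be the *Charme* gene that the study had added to its annotation, although the table does not name it. Its reads numbered 5, 15 and 11 in the WT libraries and 0, 6 and 3 in those of CharmeKO, too few to check the genotype of the libraries.

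Markers that define endothelial junctions had few reads, from 0 to 45 per library. *Pecam1*, which encodes CD31, had 2, 6 and 3 reads in WT 1 to 3 and 6, 6 and 2 in CharmeKO 1 to 3, or 0.0427 to 0.157 CPM. No library stood out, and *Pecam1* did not reach the minimum of 10 reads in 2 libraries that was set for testing, at rank 18927 by mean RPKM. *Cdh5*, which encodes VE-cadherin, had 45, 0 and 2 reads in WT and 35, 26 and 0 in CharmeKO. These are 1.04, 0 and 0.052 CPM in WT and 0.783, 0.653 and 0 CPM in CharmeKO, so that 3 libraries held a small number of *Cdh5* reads and the other 3 held 2 or none. *Esam*, an adhesion molecule of endothelial tight junctions, had 11, 2 and 3 reads in WT and 16, 20 and 9 in CharmeKO. All 3 CharmeKO libraries lay above WT 2 and WT 3, while WT 1 with 0.255 CPM was above CharmeKO 3 with 0.192 CPM.

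Of the VEGF receptors, *Kdr* was low and *Flt1* was not. *Kdr*, the main signalling receptor, had 57, 74 and 57 reads in WT and 64, 32 and 28 in CharmeKO. The levels were 1.32, 1.93 and 1.48 CPM in WT and 1.43, 0.804 and 0.598 CPM in CharmeKO, with CharmeKO 1 inside the range of WT and the other two CharmeKO libraries below it. *Flt1*, which binds VEGF tightly and signals little, was at 56.8, 76.4 and 91.0 CPM in WT and at 32.7, 143 and 29.5 CPM in CharmeKO. The 3 WT libraries lay between the highest and the lowest CharmeKO library, CharmeKO 2 alone being above them. Per length, *Flt1* exceeded *Kdr* 15.3 to 119 times, with the highest ratio in CharmeKO 2 and the lowest in CharmeKO 1.

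*Tek*, the receptor of angiopoietins, differed more between libraries than between groups. Its reads numbered 100, 12 and 21 in WT, and 136, 6 and 2 in CharmeKO, which are 2.32, 0.313 and 0.545 CPM and 3.04, 0.151 and 0.0427 CPM. WT 1 and CharmeKO 1 were the libraries with *Tek* reads in number, and in CharmeKO 3 the gene was below the limit of 3 reads.

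*Egfl7* had 16, 69 and 46 reads in WT and 32, 109 and 32 in CharmeKO, or 0.371, 1.8 and 1.19 CPM and 0.716, 2.74 and 0.684 CPM. Library 2 was the highest of each group, and the groups overlapped. On GRCm38 (chromosome 2, 26580014 to 26593120, plus strand) the exons of *Egfl7* overlap on the same strand those of *Gm20532* and *Mir126a*, and reads lying on more than one gene are not counted by the authors' tool, so its level may be understated.

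*Eng*, encoding endoglin (CD105), was the most abundant member. Its levels were 337, 195 and 116 CPM in WT and 286, 167 and 201 CPM in CharmeKO, a mean of 216 ± 112 CPM (SD, n = 3) against 218 ± 61.4 CPM (SD, n = 3). The CharmeKO values all fell within the range of WT. By mean RPKM *Eng* was at rank 772 of 19373 genes and *Flt1* at rank 6661, and no other member was above rank 13517. *Eng* and *Flt1* together made up 98 to 99.3% of the reads of all members in each library, and 98.5% over the 6 libraries.

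The order of the members by mean RPKM was *Eng* (53.6), *Flt1* (5.3), *Egfl7* (0.349), *Tek* (0.227), *Kdr* (0.14), *Cdh5* (0.1), *Esam* (0.0836) and *Pecam1* (0.0163). The lowest *Eng* library, at 28.6 RPKM, was above the highest *Flt1* library at 10.6 RPKM, and the lowest *Flt1* library at 2.18 RPKM was above the highest of *Egfl7* at 0.764 RPKM. From *Egfl7* to *Pecam1* each gene overlapped its neighbour in the order, so these neighbours did not differ beyond their spread over libraries. *Pdgfra*, a receptor of fibroblasts, exceeded *Kdr* 64.4 to 278 times per length, whereas *Eng* exceeded *Pdgfra* in every library, the ratio of *Pdgfra* to *Eng* being 0.116 to 0.522.

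**Figure D1:**
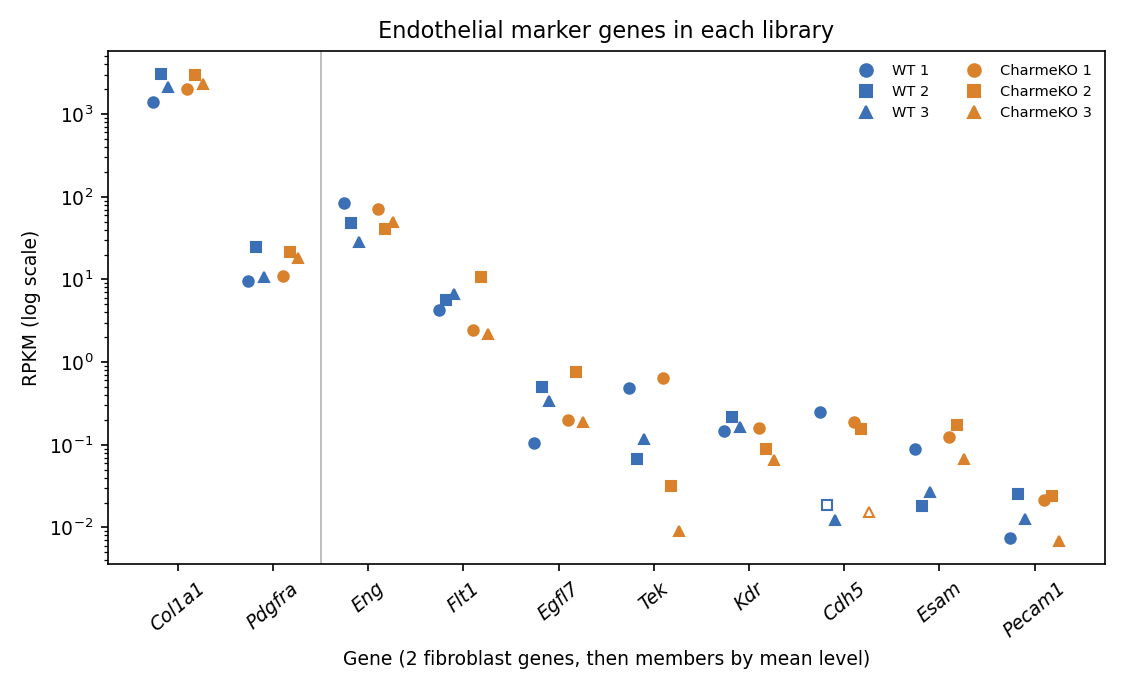
RPKM of the 8 measured endothelial marker genes, and of *Col1a1* and *Pdgfra* on the left, on a log axis, with 1 point per library (WT blue, CharmeKO orange, shapes for the library number). Open symbols stand for 0 reads and are drawn at the level of 3 reads. *Eng* and *Flt1* lie above all other members in every library, and the *Tek* values of the libraries numbered 1 (0.492 and 0.646 RPKM) lie above those of the others.

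Between genotypes, no member passed the test. The limma test on log2(normalised value + 1) gave an adjusted p of 0.9999 for each of the 7 tested members, and called 0 of 15948 genes in all (0%). An unadjusted p under 0.05 was reached by 143 genes and by 0 members. edgeR called 0 genes and DESeq2 called 8, none of them a member. Estimated differences of CharmeKO from WT, on the log2(value + 1) scale, where the added 1 shrinks the ratio of 2 low values, were positive for 4 members and negative for 3. Their median was 0.08, beside 0.0022 over all tested genes, and leaving out a single library gave -0.42 (without WT 1) to 0.12 (without CharmeKO 3). It was -0.54 under a stricter filter that kept 3 members and -0.60 without both libraries numbered 2.

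The largest estimates belonged to genes with few reads. *Esam* was at 1.41 (SE 0.731) and *Tek* at -1.24 (SE 1.53), the only members of at least 1 in size, where 5.04% of all tested genes were that large. *Tek* turned to 0.035 in edgeR with TMM normalisation, which works on the reads, and leaving out 1 library gave -2.88 (without CharmeKO 1) to -0.0905 (without CharmeKO 3). *Cdh5* was at 0.89 with an SE of 1.88 and at 0.34 in edgeR with TMM, with -0.31 without WT 2 and 2.53 without CharmeKO 3. *Kdr* was at -0.83 (SE 0.475) and *Flt1* at -0.54 (SE 0.586). *Flt1* was at -0.19 in edgeR with TMM, at -1.24 without CharmeKO 2 and at -0.13 without CharmeKO 3, with a limma adjusted p of 0.9999 in both of the latter. *Egfl7* and *Eng*, at 0.21 (SE 0.785) and 0.081 (SE 0.43), differed by less than their standard errors.

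WT and CharmeKO values overlapped for all 7 tested members, where they did not overlap for 4.11% of all tested genes. The bulk RNA of a culture does not tell fewer cells of a type from less RNA per cell. Libraries of equal number were taken as pairs because those of numbers 1 and 2 deviated together (r = 0.762 and 0.514 across genes). Those of number 3 (r = 0.217) did not stand out from unequal numbers. Within these pairs, 0 members were lower in CharmeKO in all 3 (14% of tested genes). *Esam* was higher in all 3 pairs (16.4% of tested genes), by 0.47, 2.72 and 1.04. *Kdr* was at 0.13 in pair 1, where it was slightly higher in CharmeKO, and at -1.30 and -1.33 in pairs 2 and 3. *Flt1* was at -0.78, 0.84 and -1.68 and *Eng* at -0.22, -0.28 and 0.74 in pairs 1, 2 and 3. The medians of the 7 members were 0.13, 0.53 and -1.33 in these pairs, each of 1 library per group. With the replicate number as a block, limma again called 0 members, with adjusted p from 0.7997 (*Kdr*, *Tek* and *Esam*) to 0.951 (*Eng*).

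**Figure D2:**
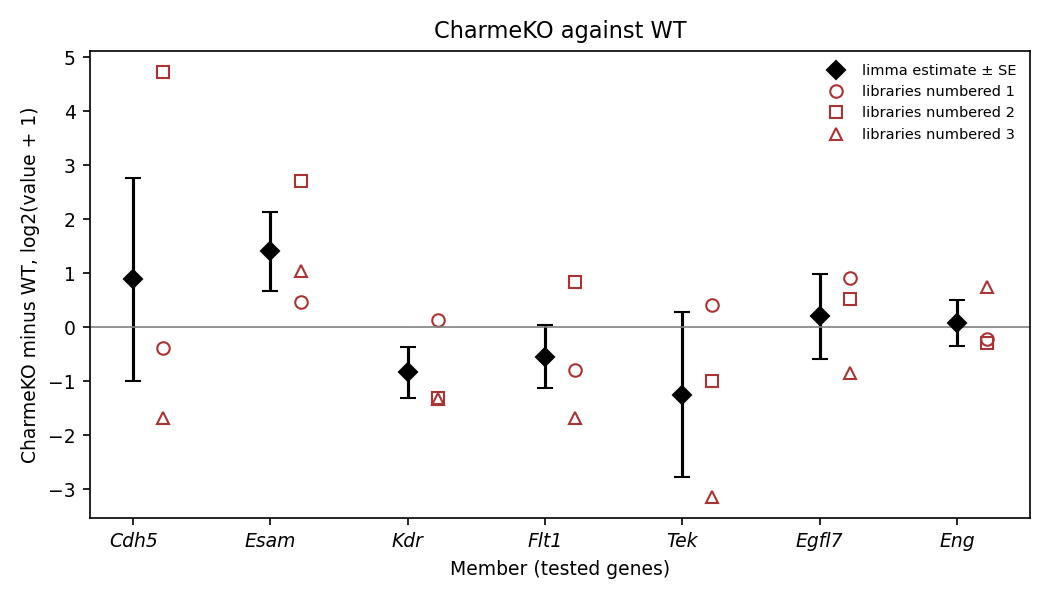
Difference of CharmeKO from WT for the 7 tested members on the log2(value + 1) scale. Diamonds are limma estimates with bars of 1 SE over 3 libraries per group, and open symbols are the differences within libraries of equal number. *Esam* is the only gene whose 3 open symbols lie on the same side of 0, and *Cdh5* has the widest bar (0.89, SE 1.88).

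No member passed a test between library numbers. This difference was examined with limma's F-test in the fit with the block, a test chosen after the values had been seen. *Tek* gave F = 10.1 (limma adjusted p = 0.08605) and *Eng* F = 7.65 (limma adjusted p = 0.1094). *Egfl7* had an adjusted p of 0.1313 in limma. Of the 7 members 0 passed the adjusted threshold, 2 were under 0.05 before adjustment, and 8.65% of all tested genes passed. In both groups *Eng* and *Tek* were highest in library 1 and *Egfl7* in library 2.

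Pairs of members differed in the sign of their correlation across libraries, a description over 6 libraries without a test. *Cdh5* and *Esam* rest on few reads here. Over the 6 libraries, which share depth and pairing, Pearson's r of log2 values ranged from -0.712 for *Egfl7* and *Eng* to 0.787 for *Cdh5* and *Esam*. *Tek* and *Kdr* were at 0.689 and *Flt1* and *Egfl7* at 0.715, whereas *Flt1* and *Eng* were at -0.567. The mean z-score of the 7 measured members other than *Eng* was 0.033, 0.062 and -0.007 in WT and 0.396, 0.526 and -1.009 in CharmeKO, so that CharmeKO 3 was the lowest library. This mean gives *Pecam1* and *Esam*, with few reads, the same weight as the others. The 10 genes nearest to this pattern, with r of 0.983 to 0.993 over 6 libraries, were *6430562O15Rik*, *Rfxap*, *Rps21*, *Slc2a8*, *Mcrs1*, *Gstm5*, *Tmem82*, *Pced1b*, *Mfap4* and *Mmgt2*, none of which is on an endothelial list. They have the highest r of all tested genes with a symbol outside the members. Whether r of this size over 6 libraries is unusual was not tested.

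Other genes of the endothelium came from lists written with earlier results of these data known. Limma's F-test between library numbers was passed by 8.65% of all tested genes. Among tested genes of these lists, 1 of 15 further pan-endothelial genes and 2 of 16 transcription factors passed it. It was also passed by 2 of 14 genes of vessel subtypes and by 3 of 20 ligands, co-receptors and relays. Of 26 further pan-endothelial genes 20 had values and 15 were tested, 6 of them higher and 9 lower in CharmeKO with 0 called and a median difference of -0.34. Their summed level was between 98.4 and 293 CPM in WT libraries and between 73.9 and 227 CPM in CharmeKO libraries. The highest mean levels of the list were those of *Ptprb*, which encodes the phosphatase VE-PTP that acts on the *Tek* product, and of *Cd34*, a sialomucin of endothelial and progenitor cells. *Ptprb* was at 130, 54.8 and 16.9 CPM in WT and at 88.3, 4.67 and 18.9 CPM in CharmeKO. *Cd34* was at 119, 25.9 and 21.4 CPM in WT and at 94.8, 11.3 and 13.1 CPM in CharmeKO, and was the gene of this list that differed between library numbers (limma adjusted p = 0.03607). Like *Tek*, both were highest in the libraries numbered 1.

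*S1pr1*, the receptor of sphingosine 1-phosphate, ranged from 8.05 to 23.1 CPM with a difference of 0.28 (SE 0.395). The lowest p-values of the list belonged to *Esm1*, a secreted proteoglycan of sprouting vessels, at -1.55 (SE 0.743), *Ly6c1*, a surface protein of capillaries, at -0.91 (SE 0.79), and *Rasip1*, a regulator of vessel lumen formation, at 1.06 (SE 0.922). *Esm1* rested on WT 3, at 24.9 CPM beside 1.56 to 6.88 CPM in the other libraries, and *Rasip1* on 2 to 24 reads per library. None of these had an adjusted limma p other than 0.9999.

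Among 20 endothelial transcription factors, 16 were tested, of which 5 were higher and 11 lower in CharmeKO with 0 called and a median of -0.22. Those with the most reads were *Klf4*, *Elk3* and *Ets1*, which other cell types use too, with *Klf4* at 121 to 226 CPM, *Elk3* at 74.6 to 109 CPM and *Ets1* at 37.5 to 95.6 CPM. Factors closer to the endothelium, named here after their values were seen, differed in level, with *Fli1* at 74 to 322 reads per library, *Sox7* at 5 to 134, *Erg* at 0 to 9 and *Sox18* at 1 to 7. *Sox17*, a factor of arterial endothelium, had 183, 0 and 2 reads in WT and 194, 0 and 0 in CharmeKO, so that nearly all of its reads came from the libraries numbered 1 (limma adjusted p = 0.03607 between numbers). *Lyl1*, a factor of endothelial and blood cells, also differed between numbers (limma adjusted p = 0.04886). *Gata2*, shared by endothelial and blood cells, was at 14.8, 11.8 and 27.4 CPM in WT and at 16.1, 50.1 and 69.0 CPM in CharmeKO (1.15, SE 0.574). *Mef2c* and *Bcl6b* were at -0.21 (SE 0.213) and -0.97 (SE 0.986). *Bcl6b* rested on few reads, with 4, 4 and 29 in WT and 10, 3 and 2 in CharmeKO.

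**Figure D3:**
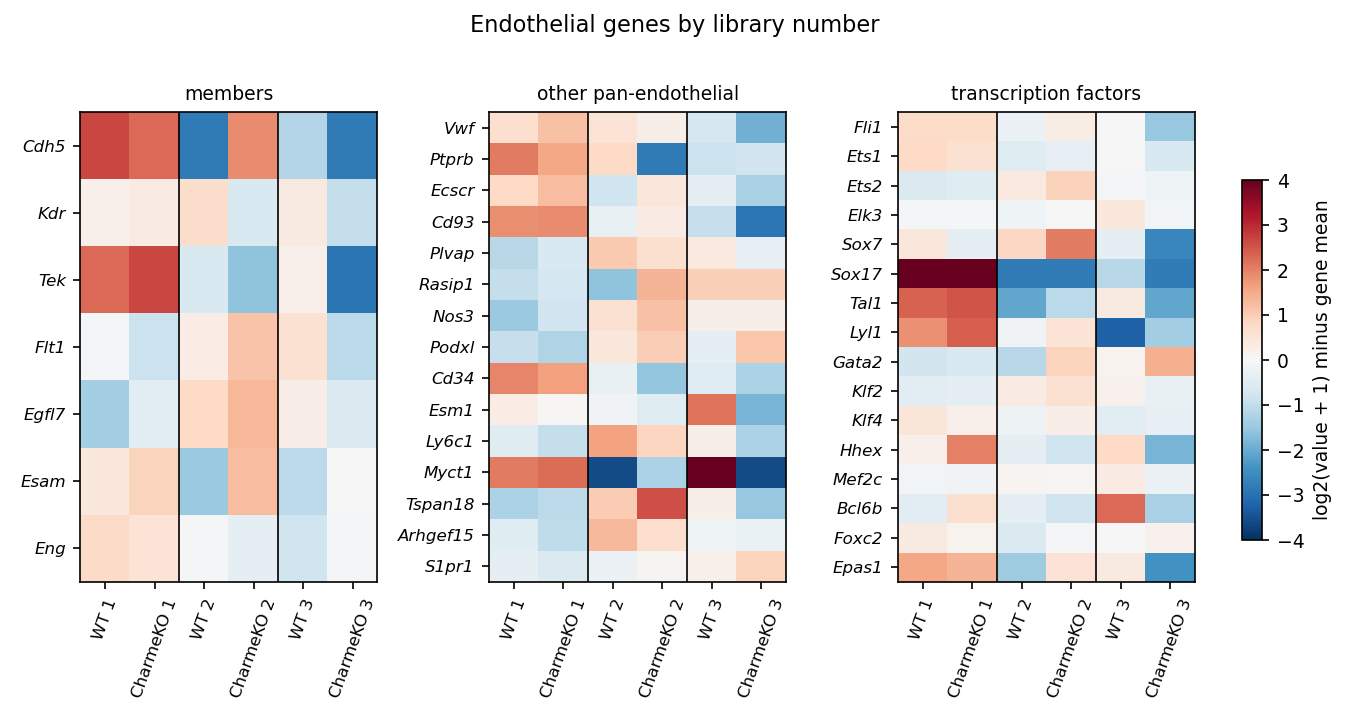
Deviation of each gene from its own mean over the 6 libraries, on the log2(value + 1) scale, for the 7 tested members, 15 other pan-endothelial genes and 16 endothelial transcription factors, with libraries ordered by number. Red is above and blue below the mean, and colours saturate at the ends of the bar. *Cdh5*, *Tek*, *Cd34*, *Ptprb*, *Cd93*, *Sox17* and *Tal1* are red in both libraries numbered 1. *Egfl7*, *Nos3*, *Plvap*, *Ly6c1*, *Arhgef15*, *Rasip1*, *Podxl*, *Tspan18*, *Ets2* and *Gata2* are blue there. The genes named are examples of each direction.

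Genes of vessel subtypes numbered 18, with 14 tested, 6 higher, 8 lower and 0 called at a median of -0.067. *Pdpn* (143 to 406 CPM), *Npr3* (65.2 to 603 CPM) and *Efnb2* (121 to 427 CPM) had the most reads, and lymphatic, endocardial and arterial endothelium are not their only sources. *Fabp4*, a fatty acid carrier of capillary endothelium and fat cells, was at 3.43, 5.17 and 2.52 CPM in WT and at 4.16, 36.1 and 27.2 CPM in CharmeKO, a difference of 2.13 (SE 0.793, limma adjusted p = 0.9999). The Notch pathway genes of arteries, *Hey1* and *Notch4*, were at -1.60 (SE 0.742) and -1.27 (SE 0.611), also without a call. *Hey1* rested on few reads, with 28, 23 and 12 in WT and 17, 5 and 3 in CharmeKO. *Ephb4*, a receptor of veins, and *Rgcc*, a capillary gene, differed between library numbers with adjusted limma p of 0.04781 and 0.03607.

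Ligands of the VEGF and angiopoietin families covered a wide range of levels. *Vegfd*, a ligand of lymphatic growth with no member as its main receptor in the mouse, was at 226, 921 and 154 CPM in WT and at 276, 939 and 1121.2 CPM in CharmeKO (1.03, SE 0.78). *Vegfa*, the chief ligand of *Kdr* and *Flt1*, was at 308, 321 and 338 CPM in WT and at 364, 379 and 348 CPM in CharmeKO. On the normalised values of the test the *Vegfa* groups overlapped, with a difference of 0.14 (SE 0.159). *Vegfc* was at 26.0, 25.9 and 23.5 CPM in WT and at 33.4, 48.0 and 36.3 CPM in CharmeKO, a difference of 0.59 (SE 0.174, limma adjusted p = 0.9999) with groups that did not overlap. *Bmpr2*, a receptor that works with *Eng*, was at 199, 235 and 211 CPM in WT and at 138, 206 and 172 CPM in CharmeKO (-0.37, SE 0.175), and its normalised values did not overlap either. *Id3*, a target of that receptor arm, was at 0.16 (SE 0.217). The ligands *Pgf* and *Angpt1*, named after their values were seen, were at 0.107 to 3.17 CPM and 0.209 to 1.01 CPM, the former binding the *Flt1* product and the latter activating the *Tek* product. Over the list of 22 ligands, co-receptors and relays, 20 were tested, 9 were higher and 11 lower, 0 were called and the median was -0.090. *Angpt2*, an angiopoietin that competes for *Tek*, was highest in library 2 of each group, at 125 and 181 CPM beside 7.25 to 34.5 CPM elsewhere (limma adjusted p = 0.03607 between numbers). *Angpt4* and *Bmp4* differed between numbers as well, with adjusted limma p of 0.04998 and 0.04131.

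In limma's F-test between library numbers, which 8.65% of all tested genes passed, 5 of 18 macrophage and haematopoietic markers, 4 of 20 fibroblast markers, 2 of 12 pericyte and smooth muscle markers, 1 of 9 mesothelial markers and 0 of 3 cardiomyocyte markers passed. Mesothelial and epicardial markers, of which 11 of 12 had values, had sums of 357 CPM (WT 1) and 384 CPM (CharmeKO 1), beside 26.2 to 104 CPM in the other libraries. *Upk3b*, which marks mesothelium, was at 105 and 106 CPM in the libraries numbered 1 and at 7.29 to 16.7 CPM elsewhere. Macrophage and haematopoietic markers, all 18 with values, together came to between 142 and 327 CPM in WT libraries and between 91 and 584 CPM in CharmeKO libraries. *Ptprc*, which encodes CD45, had 172, 42 and 27 reads in WT and 265, 61 and 0 in CharmeKO, and *Lyz2* was at 298 and 267 CPM in CharmeKO 1 and CharmeKO 2 and at 6.84 CPM in CharmeKO 3. The part of these cells in the *Tek*, *Cdh5* and *Eng* values was not tested.

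Pericyte and smooth muscle markers, 13 of 15 with values, came to between 1441.0 and 6191.9 CPM in WT libraries and between 868 and 3646.4 CPM in CharmeKO libraries. Of 12 tested, 1 was higher and 11 lower in CharmeKO at a median of -1.56 with 0 called. Lower in all 3 pairs were 8 of the 12, beside 14% of all tested genes. Their medians in pairs 1, 2 and 3 were -0.19, -2.23 and -2.72. *Acta2* and *Tagln*, contractile genes of smooth muscle and of activated fibroblasts, were at -1.60 (SE 1.19) and -1.66 (SE 1.20). *Cspg4*, encoding the pericyte proteoglycan NG2, was at -3.57 (SE 1.05). Its reads numbered 457, 633 and 3334 in WT and 251, 107 and 29 in CharmeKO, so that WT 3 held the most. The 1 higher gene was *Pdgfrb*, at 0.050 (SE 0.257), and *Notch3* was at -0.0047 (SE 0.512). Fibroblast markers summed to 36800.4 to 72806.5 CPM, with 9 of 20 higher, 11 lower and 0 called at a median of -0.21. Of 13 cardiomyocyte markers 5 had values, with a sum of 3.51 to 18.6 CPM.

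Against these, the endothelial members summed to 399, 275 and 210 CPM in WT and 325, 315 and 232 CPM in CharmeKO. These sums were above the mesothelial sum in 5 of the 6 libraries and above the macrophage sum in 4. Without *Eng* the sums were 62.2, 80.6 and 94.4 CPM and 39.1, 148 and 31.0 CPM. Without *Eng* and *Flt1*, the 6 remaining genes summed to 5.35, 4.25 and 3.43 CPM in WT and to 6.46, 5.00 and 1.56 CPM in CharmeKO. The groups overlapped in all these sums, and in the last one CharmeKO 3, which also had the lowest macrophage and mesothelial sums, was the lowest library.

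**Figure D4:**
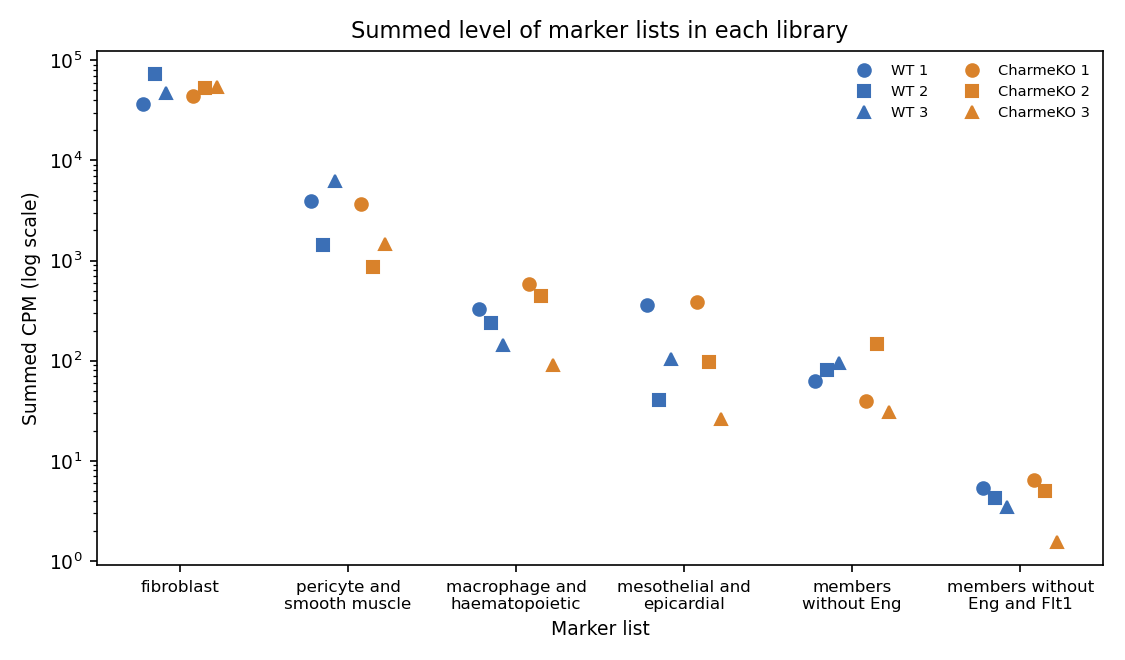
Summed CPM of marker lists in each library on a log axis, with 1 point per library (WT blue, CharmeKO orange, shapes for the library number). The last 2 columns leave out the most abundant members, a choice made after their values were seen, and all measured members together, not drawn, sum to 210 to 399 CPM. Without *Eng* and *Flt1* the sums are 1.56 to 6.46 CPM.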

How the data were processed

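RNA-seq of 6 libraries of cultured CFs was used, 3 WT and 3 CharmeKO, grouped by sample titles. The authors aligned reads with STAR, counted reverse-strand reads per gene, left out genes with few counts, and ran the DESeq2 normalisation. Their assembly (named as GRCm39) and annotation (an Ensembl release built on another assembly) do not match, and the table holds no coordinates. What the authors deposited is a normalised signal, that is, the reads of a gene divided by a size factor per library.

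Dividing by each library's unit gave back whole reads for 100% of 116676 values (tolerance 0.001). Lengths and positions came from GENCODE M21 on GRCm38, and 99.6% of genes had a length. Tests were limma 3.58.1 in R 4.3.3 on log2(value + 1), fitting genotype alone, over the 15948 genes that reached 10 reads in 2 or more libraries, with Benjamini-Hochberg adjustment at 0.05. Alternatives were edgeR 4.0.16, DESeq2 1.42.0, other scalings, filters and pseudocounts, the replicate number as a block, and leaving out libraries. All tests were two-sided. Limma and DESeq2 with and without the block, edgeR with TMM and limma's F-test were run on simulated data. The other scalings, filters and pseudocounts and the fits that left out libraries were not. Plots used Python 3.11.15 and matplotlib 3.10.9.

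The members and gene lists were chosen with earlier results of these data known. The genes to be named were the members, the 10 genes nearest to them in pattern, and of each other list the 3 with the highest mean CPM and the 3 with the lowest limma p. Of those rules, genes of other cell types are mostly given by list sums.

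WT and CharmeKO libraries of numbers 1 and 2 deviated together from their group means, with r = 0.762 and 0.514 across genes. Unequal numbers gave -0.643 to 0.222, and number 3, with r = 0.217, lay within that range. Equal numbers were treated as pairs on the ground of these same values, as the labels do not say what they share.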

Additional observations from a re-analysis of the deposited data

How the results depend on the processing

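No alternative called a member of the 7 tested (3 under the stricter filter, 8 without a filter). The number of genes called over the whole table was 0 in every limma and edgeR fit, 8 in the DESeq2 Wald test and 64 in DESeq2 with the replicate block. With the replicate block, limma called 0 genes (857 with an unadjusted p under 0.05), and the median of the members was 0.0808 as without it. *Kdr* stayed negative (-1.31 to -0.56) and *Esam* positive (0.75 to 1.97) under all alternatives that gave them a value. *Tek* turned to 0.035 in edgeR with TMM, 0.039 in edgeR with DESeq2 size factors and 0.034 in DESeq2, and *Eng* to -0.0041, -0.0070 and -0.012 in the same fits; the cause was not tested. Leaving out 1 library gave -0.31 to 2.53 for *Cdh5* (-0.31 without WT 2, -0.027 without CharmeKO 1), -0.42 to 0.65 for *Egfl7* (-0.42 without WT 1, -0.41 without CharmeKO 2) and -0.29 to 0.48 for *Eng* (-0.29 without WT 3, -0.17 without CharmeKO 1). It gave -2.88 to -0.0905 for *Tek* and -1.24 to -0.13 for *Flt1*. The median of the members then ran from -0.42 to 0.12, and was -0.54 under the stricter filter (3 members) and -0.60 without both libraries numbered 2. In edgeR with TMM, edgeR with DESeq2 size factors and the DESeq2 Wald test, *Flt1* was at -0.19, -0.20 and -0.20 and *Cdh5* at 0.34, 0.33 and 0.34. An unadjusted limma p under 0.05 was reached by 1 member without WT 1 (*Esam*), 2 without CharmeKO 1 (*Kdr* and *Tek*) and 1 without CharmeKO 2 (*Flt1*). For *Flt1* this unadjusted limma p was 0.0032. Without both libraries numbered 2, *Flt1* was at -1.23 with an unadjusted limma p of 0.0113. Leaving out both libraries of a number, added after seeing the data, turned *Egfl7* to -0.15 without number 1, *Cdh5* to -1.03 without number 2, and *Flt1* to 0.028 and *Eng* to -0.25 without number 3. The median summed level of the members was 295 CPM, and 71.4 CPM without *Eng*, the member with the most reads. The 10 genes nearest in pattern had Spearman's rho of 0.771 to 1 and r of 0.940 to 0.980 when *Eng* was included. *Pecam1*, with 2 to 6 reads per library, was below the minimum for the test, and *Esam* (2 to 20 reads) and *Cdh5* (0 to 45 reads) rest on few reads.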

Other observations

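Among genes outside the members, *Acvrl1*, which encodes the receptor ALK1 that pairs with endoglin, was chosen after its values were seen. It was at 95.0, 58.5 and 69.5 CPM in WT and at 103, 72.0 and 5.86 CPM in CharmeKO, so that CharmeKO 3 held less than any other library while *Eng* was at 201 CPM there. *Myct1*, a gene of the pan-endothelial list, had 50, 0 and 184 reads in WT and 57, 4 and 0 reads in CharmeKO, also named after its values were seen.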
